A study of Bos taurus with 16 samples.

Results

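The genes described here encode chaperones of the endoplasmic reticulum (ER), the compartment in which secreted and membrane proteins fold, together with proteins that assist or regulate them. The 10 genes were chosen by name: HSPA5, HSP90B1, PDIA4, HYOU1, SDF2L1, SYVN1, CRELD2, CALR, DNAJB9 and XBP1. All 10 were found among the 12040 genes that had an exon-bearing region of their own, and all 10 were among the 9470 genes tested. HSPA5 (BiP) is the main Hsp70 chaperone of the ER and uses ATP to hold and release unfolded chains, while disulfide isomerases such as PDIA4 form disulfide bonds and the lectin CALR (calreticulin) binds sugar chains on new glycoproteins. When unfolded proteins build up, the unfolded protein response raises transcription of many of these genes. One branch of that response runs through XBP1, whose messenger RNA is spliced to encode an active transcription factor, and which is known for driving ER capacity in secretory cells.

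RNA was sequenced from rumen papillae of 16 crossbred steers, 1 library per animal, to compare animals that differed in feed intake and in body weight gain. The steers were 344 ± 48 days old per the labels, received no treatment and ate 1 ration freely (57.35% corn, 30% distillers grains and 8% alfalfa). They had been picked by their quadrant of gain and dry matter intake, which gave 4 groups of 4 animals: high gain with high intake (HGHI), high gain with low intake (HGLI), low gain with high intake (LGHI) and low gain with low intake (LGLI). Gain and intake are therefore traits by which animals were selected and not treatments given to them. Papillae were clipped whole from the rumen wall, so each library mixes epithelium with the cells beneath it.

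Levels are the average depth of reads over the bases of a region, on a scale that the authors set so that library totals are almost equal. Estimated depth was 11.9 to 21.2 M reads per library (M for mega), with 17.5 ± 2.4 M reads in high-gain and 14.7 ± 1.46 M reads in low-gain animals (SD, n = 8 each, two-sided exact permutation test, p = 0.0103, 0.0410 adjusted over 4 tests). Before any gene was compared, 5 libraries stood apart. HGHI replicate 4, HGLI replicates 2, 3 and 4 and LGLI replicate 3 had little coverage of first exons, with a first-exon index of -3.95 to -3.31 against -2.44 to -1.19 in the other 11. The index is the median over 2427 genes of the log2 coverage of exon 1 minus that of other exons. High gain held 4 of these libraries and low gain 1, while high intake held 1 and low intake 4. The comparisons of the 10 genes are therefore given over all 16 libraries and over the other 11, among which HGHI has 3, HGLI 1, LGHI 4 and LGLI 3. The papillae held their labelled epithelium: the basal keratin KRT5 was at 53.8 to 349 and the suprabasal keratin KRT6A at 851 to 3380 in every library. Not all epithelial markers were high. Loricrin (LOR) was listed at 0 in 15 libraries, KRT4 and KLK7 in 4 each and ITGB4 in 3, and KRT10 was at 0.71 to 1.39.

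The 10 genes were covered by 42 exon-bearing regions, and 3 of those also held exons of another gene and were not used for levels. For each gene the unshared region with the largest average coverage stands for its level. Positions are on the bovine build UMD3.1. For HSPA5 and CALR the region held every exon of the gene that the file lists: exons 1 to 9 of HSPA5 on chromosome 11 (96115093 to 96119305) and exons 1 to 9 of CALR on chromosome 7 (13732304 to 13735800). The same held for DNAJB9, with exons 1 to 2 on chromosome 4 (59969826 to 59973834). HSP90B1 was read from exon 5 on chromosome 5 (67944788 to 67945409), because its larger region of exons 8 to 18 is shared with C5H12orf73. XBP1 was read from exon 5 on chromosome 17 (70344505 to 70345087), and this region cannot separate the spliced from the unspliced messenger RNA.

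The levels of PDIA4, HYOU1, SDF2L1 and CRELD2 came from regions that reach the last listed exon. PDIA4 was read from exons 8 to 10 on chromosome 4 (112988485 to 112993249) and HYOU1 from exons 14 to 26 on chromosome 15 (30159418 to 30165363). SDF2L1 was read from exon 3 on chromosome 17 (74103550 to 74104895) and CRELD2 from exons 7 to 10 on chromosome 5 (120937619 to 120940392). SYVN1 was read from exons 8 to 9 on chromosome 29 (43999916 to 44000223), since its region of exons 14 to 15 also held an exon of MRPL49. Regions that span several exons also hold intron bases, so the order of levels between genes is approximate. By mean coverage per base over the 16 libraries, HSPA5 was the highest at 177 ± 77.6, followed by XBP1 at 123 ± 51.3, CALR at 101 ± 31.5 and HSP90B1 at 54.4 ± 25.1. PDIA4 at 20.8 ± 12.2, DNAJB9 at 15.4 ± 7.76 and HYOU1 at 14.1 ± 7.35 formed a middle group whose ranges overlap. SDF2L1 at 8.34 ± 6.69, SYVN1 at 4.78 ± 2.09 and CRELD2 at 3.06 ± 2.48 were the lowest (SD, n = 16).

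**Figure D1:**
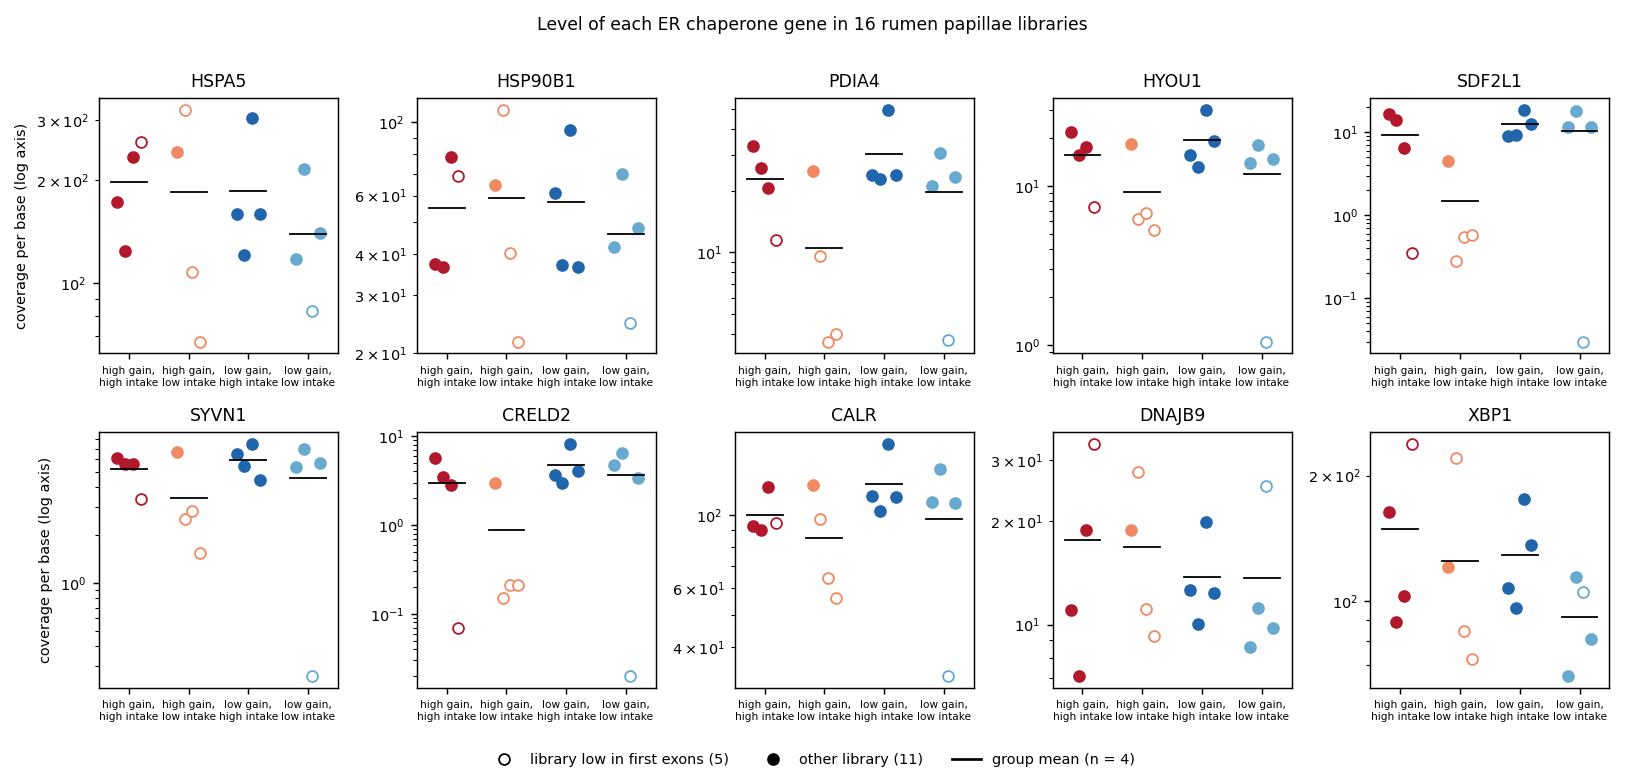
Level of each of the 10 ER chaperone genes as coverage per base (log axis) in every library, by group from high gain with high intake to low gain with low intake; open circles are the 5 libraries low in first exons, filled circles the other 11, and lines the group means (n = 4). SDF2L1 and CRELD2 reach at most 0.58 in the 5 open circles and at least 2.81 in the others, whereas for HSPA5, HSP90B1, DNAJB9 and XBP1 the open and filled circles overlap.

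The abundant chaperones had overlapping ranges in the 4 groups. HSPA5 was at 173, 124, 234 and 259 in HGHI and at 242, 322, 108 and 67.4 in HGLI. In LGHI it was at 159, 121, 305 and 159, and in LGLI at 118, 217, 82.8 and 141. Every group held animals on both sides of the overall median of 159, with 3 of 4 above it in HGHI and 1 of 4 in LGLI. HSP90B1, the ER form of Hsp90 that finishes the folding of receptors and integrins, averaged 55.2 ± 21.6 in HGHI, 59.0 ± 37.9 in HGLI, 57.4 ± 27.4 in LGHI and 46.0 ± 18.7 in LGLI (SD, n = 4 each). Its highest value, 109, and its lowest, 21.7, both came from HGLI. CALR averaged 99.6 ± 14.5 in HGHI, 85.4 ± 31.0 in HGLI, 124 ± 27.4 in LGHI and 96.9 ± 44.8 in LGLI, with overlapping ranges.

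PDIA4 carried the smallest unadjusted p-value of the 10 genes for intake. It was at 33.0, 25.8, 20.7 and 11.5 in HGHI and at 24.9, 9.59, 3.65 and 3.98 in HGLI. In LGHI it was at 23.9, 22.95, 49.9 and 23.8, and in LGLI at 21.0, 30.6, 3.71 and 23.25. The low values, 11.5 or less, were those of the 5 libraries low in first exons, and the 11 others lay between 20.7 and 49.9 with no separation by intake. HYOU1, an Hsp70-like protein that drives nucleotide exchange on HSPA5, had the same layout: 1.05 to 7.36 in the 5 libraries and 13.2 to 30.2 in the 11.

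SDF2L1 and CRELD2 are small ER proteins: SDF2L1 works with the HSPA5 co-chaperone DNAJB11, and CRELD2 is an ER protein induced by ER stress. SDF2L1 was at 16.5, 13.9, 6.42 and 0.35 in HGHI and at 4.5, 0.28, 0.54 and 0.58 in HGLI. In LGHI it was at 8.94, 9.27, 18.7 and 12.6, and in LGLI at 11.5, 17.9, 0.03 and 11.4. Among the 11 libraries the lowest 2 were HGLI replicate 1 and HGHI replicate 3, both of high gain, and high gain and low gain otherwise overlapped. CRELD2 was at 5.61, 3.49, 2.81 and 0.07 in HGHI and at 2.96, 0.15, 0.21 and 0.21 in HGLI. In LGHI it was at 3.60, 2.93, 8.21 and 4.09, and in LGLI at 4.76, 6.49, 0.02 and 3.39. In the 5 libraries low in first exons the level of SDF2L1 rests on an estimated 1 to 22 reads and that of CRELD2 on 1 to 18, against 155 to 658 and 200 to 562 in the 11.

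DNAJB9, a J protein that delivers clients to HSPA5 and to ER-associated degradation, ran the other way in those libraries. It was at 11, 7.10, 18.8 and 33.5 in HGHI and at 18.9, 27.8, 11.1 and 9.30 in HGLI. In LGHI it was at 12.6, 10, 19.8 and 12.4, and in LGLI at 8.62, 11.2, 25.2 and 9.80. The 3 highest values, 33.5, 27.8 and 25.2, all came from libraries low in first exons, and the other 2 of those, at 11.1 and 9.30, lay inside the range of the 11. XBP1 averaged 148 ± 68.4 in HGHI, 125 ± 67.03 in HGLI, 129 ± 35.5 in LGHI and 91.5 ± 22.0 in LGLI. SYVN1, the ubiquitin ligase of ER-associated degradation, averaged 5.17 ± 1.22 in HGHI, 3.40 ± 2.26 in HGLI, 5.96 ± 1.33 in LGHI and 4.58 ± 2.96 in LGLI (SD, n = 4 each). Its level rests on few reads, an estimated 2 to 28 in the 5 libraries low in first exons and 36 to 61 in the 11.

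Over all 16 libraries, each of the 10 genes had a higher mean log2 level at high intake than at low intake, but none passed the test. The share of all tested genes with a positive difference was 49.6%. The median log2 difference was 0.63 over the 10 genes and -0.01 over all genes tested. With limma and Benjamini-Hochberg adjustment over 9470 genes, 0 of the 10 and 0 of all genes (0%) had an adjusted p under 0.05. At an unadjusted p under 0.05, 1 of the 10 was higher at high intake, beside 2.46% of all genes, and 0 were lower, beside 5.81%. That gene was PDIA4, with a log2 difference of 1.16 (SE 0.48, limma adjusted p = 0.529). The larger estimates of SDF2L1 and CRELD2, 1.98 (SE 1.03) and 1.5 (SE 0.93), came with wider errors and the same adjusted p of 0.529.

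Of the other genes, HYOU1 was at 1.03 (SE 0.52, limma adjusted p = 0.529) and SYVN1 at 0.87 (SE 0.53). CALR was at 0.40 (SE 0.28), XBP1 at 0.38 (SE 0.27), HSPA5 at 0.35 (SE 0.33), HSP90B1 at 0.18 (SE 0.35) and DNAJB9 at 0.03 (SE 0.34). The 95% intervals leave room for sizeable differences: that of HSPA5 ran from -0.36 to 1.07 and that of SDF2L1 from -0.23 to 4.19.

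The common direction was gone in the 11 libraries that are not low in first exons. There 5 of the 10 genes were higher at high intake, against 34.1% of all genes, and the median log2 difference was 0.00 over the 10 and -0.13 over all genes. At an unadjusted p under 0.05 none of the 10 was higher or lower, beside 2.47% of all genes higher and 7.25% lower. PDIA4 was then at 0.13 (SE 0.26, limma adjusted p = 0.859), with a mean of 28.6 ± 10.2 in 7 high-intake animals and 25.0 ± 4.11 in 4 low-intake animals. HYOU1 was at 0.13, CRELD2 at 0.12 and XBP1 at 0.24. HSPA5 at -0.16, HSP90B1 at -0.21, CALR at -0.13, DNAJB9 at -0.15 and SYVN1 at -0.12 were negative. SDF2L1 kept the largest estimate, 0.58, with means of 12.3 ± 4.40 in 7 high-intake and 11.3 ± 5.46 in 4 low-intake animals. With the first-exon index as a covariate over all 16 libraries, by contrast, all 10 genes were positive for intake, against 40.7% of all genes. Their median was then 0.30 against -0.06 over all genes, and none passed the adjusted threshold with limma. In the fit over the 11, with 1 library left in HGLI, that library is assumed to vary like those of the other groups. Groups weigh equally in that fit, so for intake this library counts as much as the 3 of LGLI together. SDF2L1 was at 4.5 in it, so the 0.58 rests largely on 1 animal.

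**Figure D2:**
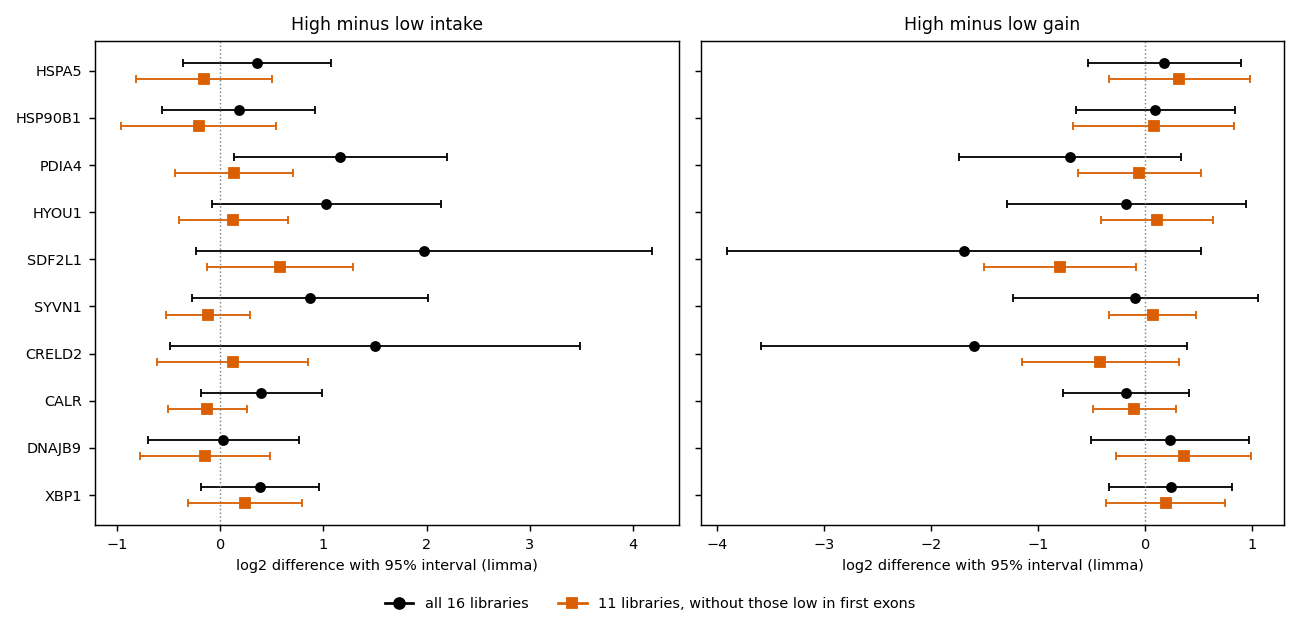
Log2 difference of each ER chaperone gene between high and low intake (left) and between high and low gain (right), with 95% intervals from limma, over all 16 libraries (black circles) and over the 11 that are not low in first exons (orange squares). For intake, the black circles all lie right of 0 and the orange squares lie on both sides; PDIA4 is at 1.16 over the 16 and at 0.13 over the 11, and SDF2L1 at 1.98 and 0.58.

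All 42 exon-bearing regions of the 10 genes gave a positive intake difference over the 16 libraries, with a median of 1.04 on the log2 scale. Over the 11 libraries 22 were positive and 20 negative, with a median of 0.06. Regions of 1 gene come from the same transcripts and animals, so these counts do not add independent evidence. They include the 3 regions shared with another gene, and the share over all exon-bearing regions was not computed.

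For gain, 4 of the 10 genes had a positive log2 difference over the 16 libraries, against 46.1% of all genes, and none passed the test. The median was -0.14 over the 10 and -0.05 over all genes. With limma, 0 of 9470 genes had an adjusted p under 0.05 (0% in either direction). At an unadjusted p under 0.05 the counts were 0 of the 10 in either direction, beside 0.982% of all genes higher and 4.35% lower at high gain. The mean of SDF2L1 was 5.39 ± 6.50 in high-gain and 11.3 ± 5.81 in low-gain animals (SD, n = 8 each), with a log2 difference of -1.70 (SE 1.03, limma adjusted p = 0.847). That of CRELD2 was 1.94 ± 2.082 in high-gain and 4.19 ± 2.44 in low-gain animals, with a difference of -1.60 (SE 0.93). PDIA4 was at -0.70 (SE 0.48), while HSPA5, DNAJB9 and XBP1 were at 0.18, 0.23 and 0.24.

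SDF2L1 was the only one of the 10 with an unadjusted p under 0.05 for gain in the 11 libraries. It averaged 10.3 ± 5.78 in 4 high-gain animals and 12.9 ± 3.90 in 7 low-gain animals, and the fit gave a log2 difference of -0.80. That fit weighs the groups equally, so the 1 animal of HGLI, at 4.5, counts as much as the 3 of HGHI. The estimate is thus not the difference between these averages. Of all genes, 10.3% were lower at high gain at an unadjusted p under 0.05 in these libraries, and 2.13% were higher. The 4 high-gain values, 16.5, 13.9, 6.42 and 4.5, overlap the low-gain range of 8.94 to 18.7, with 2 of them below it. CRELD2 was at -0.42 there, and 6 of the 10 genes were positive, against 45% of all genes.

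The sign for gain changed with how first-exon coverage was handled. With the index as a covariate over 16 libraries, HYOU1, SDF2L1 and SYVN1 were higher at high gain, by 1.10, 1.07 and 1.14 on the log2 scale (limma adjusted p = 0.0237, 0.0200 and 0.0423). In that fit 11.8% of all genes passed as higher and 2.69% as lower. SDF2L1 was thus at -1.70 without the covariate, at -0.80 in the 11 libraries and at 1.07 with it. The index itself was -2.86 ± 0.880 in high-gain animals, against -1.75 ± 0.891 in low-gain animals (SD, n = 8 each, two-sided exact permutation p = 0.0269, 0.0538 adjusted over 4 tests). By intake it was -1.99 ± 0.847 at high and -2.62 ± 1.16 at low intake (p = 0.236, adjusted 0.315, the same exact test).

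The difference of differences, high minus low intake at high gain minus the same at low gain, was smaller than its SE for all 10 genes over the 16 libraries. There 3 of the 10 genes were positive, against 48.8% of all genes, with a median of -0.17. With limma, 0 of the 10 and 0 of all genes passed the adjusted threshold (0% in either direction), and 0 of the 10 had an unadjusted p under 0.05, beside 0.148% of all genes higher and 0.38% lower. The errors were wide: SDF2L1 was at 0.95 (SE 2.06) and HSPA5 at -0.11 (SE 0.67). In the 11 libraries SDF2L1 was at 1.49 (SE 0.64, limma adjusted p = 0.494). It was the 1 gene of the 10 with an unadjusted p under 0.05 there, beside 5.98% of all genes higher and 3.74% lower. DNAJB9 was at -1.16 (SE 0.57, limma adjusted p = 0.550) in the 11. The SDF2L1 value rests on 1 animal of HGLI, with SDF2L1 at 4.5, against 16.5, 13.9 and 6.42 in HGHI. The DNAJB9 value rests on the same animal, with DNAJB9 at 18.9, against 11, 7.1 and 18.8 in HGHI. No gene of the 10 had non-overlapping values between 8 and 8 libraries for gain or intake. Of all genes, 0.0211% did so as higher and 0.0106% as lower for gain, and 0.0211% as higher and 0.0528% as lower for intake.

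Coverage along the genes differed between the 5 libraries low in first exons and the other 11, and it split the 10 genes. By mean log2 level, 5 of the 10 were lower by more than 1 in the 5 libraries, beside 32.8% of all genes, and 0 were higher by more than 1, beside 6.62%. The same 5 genes had no overlap between the 5 and the 11, which held for 19.5% of all genes in that direction and for 3.15% in the other. They were SDF2L1 at -4.82, CRELD2 at -4.28, PDIA4 at -2.19, HYOU1 at -1.95 and SYVN1 at -1.79. CALR at -0.83, HSPA5 at -0.32 and HSP90B1 at -0.25 were closer to the all-gene median of 0.01, and XBP1 at 0.22 and DNAJB9 at 0.64 were above it. Of the 10 genes, HYOU1 is among the 2427 genes of the index. No test was made, since the groups come from the data.

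Within single genes, the first exon was low even where the rest of the gene was not. Exon 1 of HSP90B1 was at 0 to 0.16 in the 5 libraries and at 9.97 to 43.4 in the 11, whereas its exon 5 was at 21.7 to 109 and 36.4 to 94.7. XBP1 had 0 to 0.43 against 1.31 to 33.5 over exon 1, and 72.6 to 239 against 66.0 to 176 over exon 5. The 6 regions that hold only exon 1 had log2 differences of -6.76 to -2.27. In SYVN1, exon 13 was at 0 in all 5 libraries and at 1.63 to 7.07 in the 11, so low coverage was not limited to the first exon there. Of the 42 regions 39 were lower in the 5 libraries, with a median difference of -2.43, and the share over all regions was not computed.

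**Figure D3:**
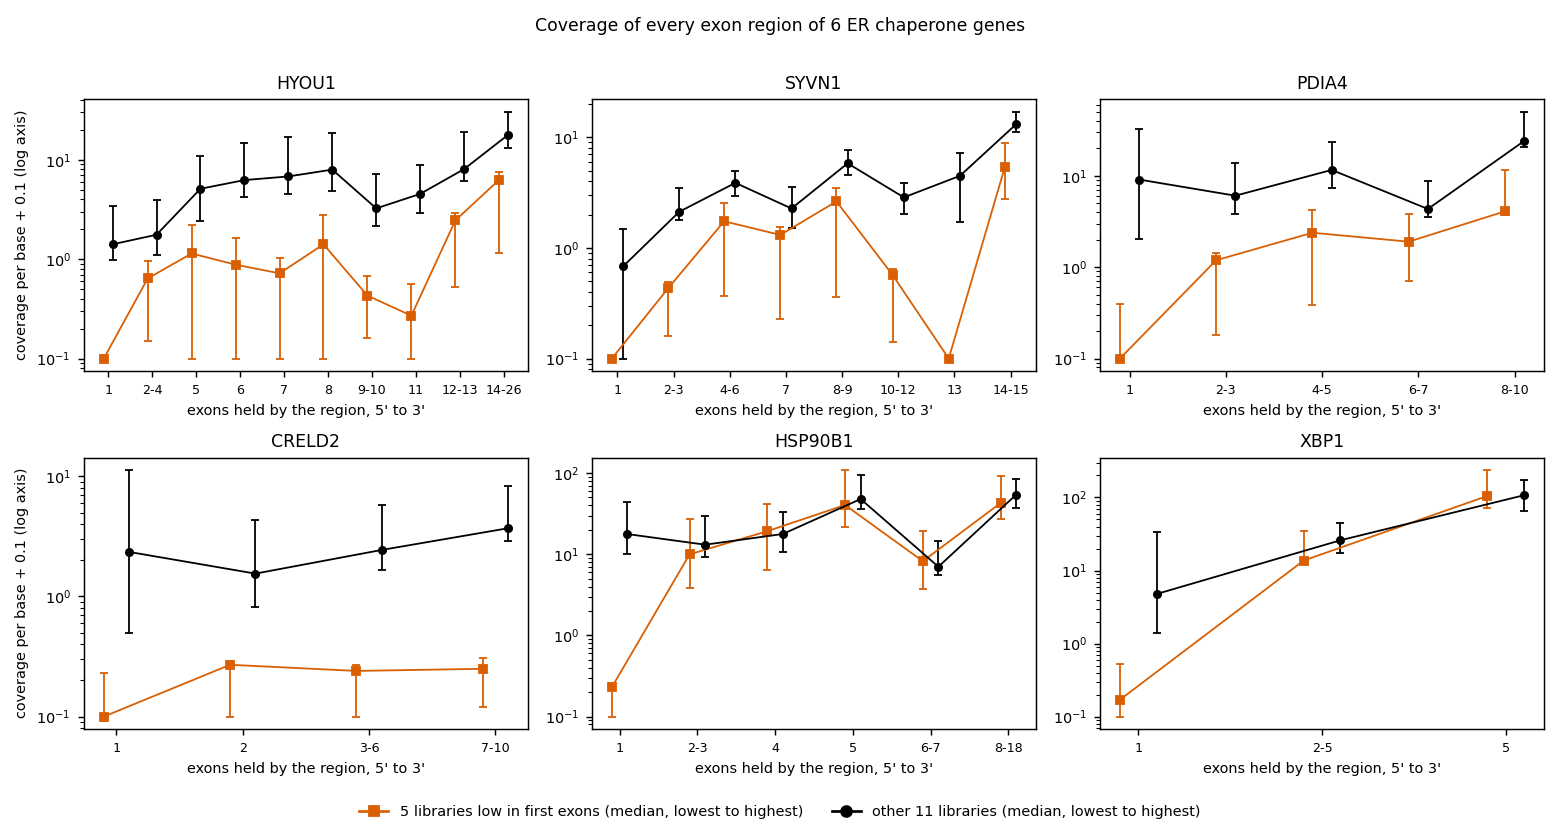
Coverage per base plus 0.1 (log axis) of every exon-bearing region of HYOU1, SYVN1, PDIA4, CRELD2, HSP90B1 and XBP1, ordered from the first to the last exon; orange squares give the median and range of the 5 libraries low in first exons and black circles those of the other 11. In HSP90B1 the ranges overlap in each region after exon 1, and in XBP1 the medians are 13.6 and 25.8 over exons 2 to 5 and 105 and 107 over exon 5, while in HYOU1, SYVN1, PDIA4 and CRELD2 the orange curve stays below the black one to the last region.

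The 5 libraries also differed among themselves. HSPA5 was at 322 in HGLI replicate 2 and at 259 in HGHI replicate 4, and at 108, 82.8 and 67.4 in HGLI replicate 3, LGLI replicate 3 and HGLI replicate 4. HGHI replicate 4 was the highest of the 5 for PDIA4, HYOU1, SYVN1, DNAJB9 and XBP1, with XBP1 at 239. LGLI replicate 3 was the lowest of the 5 for HYOU1, SDF2L1, SYVN1, CRELD2 and CALR, but held DNAJB9 at 25.2. Ratios within a library moved as well: DNAJB9 was 8.62% to 30.4% of HSPA5 in the 5 libraries and 5.15% to 8.31% in the 11. CALR was 30.2% to 83.2% of HSPA5 in the 5 and 50.9% to 92.5% in the 11. Markers of tissue make-up varied too: the 7 basal epithelium markers summed to 197 to 980 in the 5 libraries and to 699 to 1306 in the 11, and the 7 smooth muscle markers to 2.89 to 21.8 in the 5 and 9.52 to 105 in the 11. The 9 fibroblast and matrix markers summed to 245 to 1125 in the 5 and 213 to 468 in the 11, and the 7 plasma and B cell markers to 9.43 to 51.6 in the 5 and 12.7 to 23.8 in the 11. The sums of endothelium, T cell and myeloid, suprabasal epithelium and secretory epithelium markers also overlapped between the 5 and the 11. The mitochondrial share of coverage was 11.6% to 28.0% in the 5 and 8.75% to 25.0% in the 11. The part of either in these levels was not tested.

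**Figure D4:**
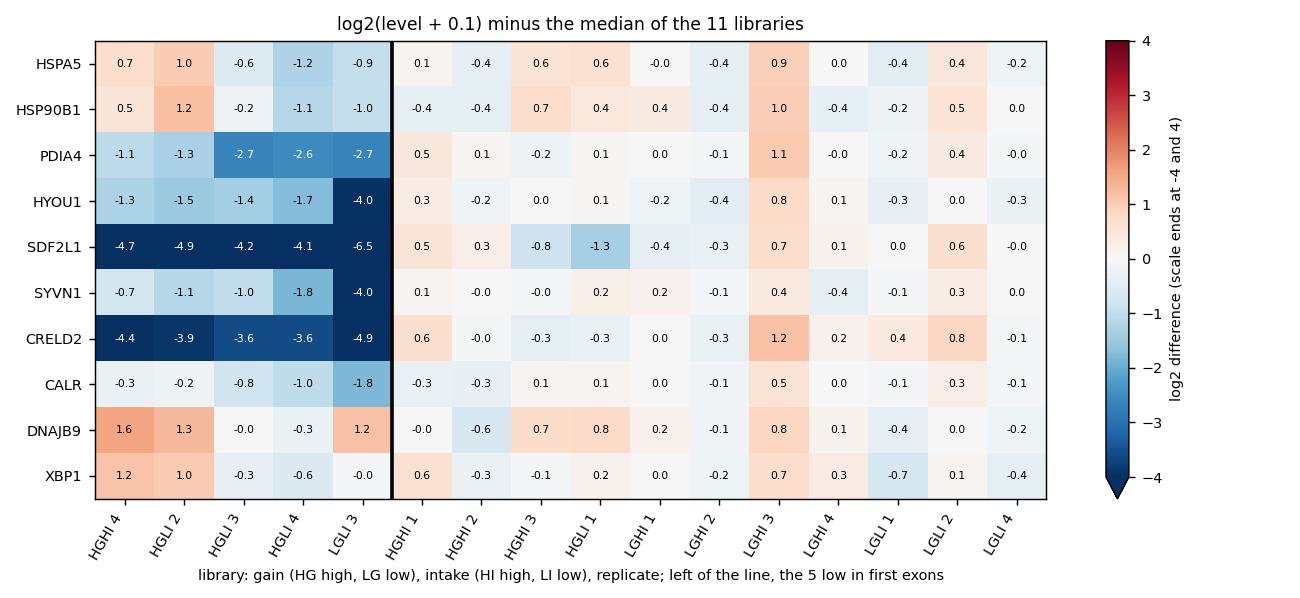
Log2(level + 0.1) of each ER chaperone gene in each library minus the median of the 11 libraries that are not low in first exons; colours end at -4 and 4, and the 5 libraries low in first exons stand left of the line. SDF2L1 and CRELD2 are lowest on the left, DNAJB9 is above 1 in 3 of those 5, and LGHI replicate 3 is above 0 in all 10 genes.

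Among the 11 libraries, LGHI replicate 3 had the highest level of all 10 genes. The same library was the highest of the 11 for 8.91% of all genes. It was singled out after its values were seen. HSPA5 was at 305 in it and at 118 to 242 in the other 10, and CALR at 164 against 89.9 to 137. PDIA4 was at 49.9 against 20.7 to 33.0. Its level over the median of the other 10 was 2.32-fold for CRELD2, 2.11-fold for HSP90B1, 2.09-fold for PDIA4 and 1.92-fold for HSPA5, down to 1.33-fold for SYVN1. It was also the highest in 36 of the 42 regions, a count for which the share over all regions was not computed. With median-of-ratios scaling in place of the authors' scaling it was the highest for 7 of the 10, and SDF2L1, SYVN1 and XBP1 then peaked elsewhere. The share of all genes under that scaling was not computed. This library had the lowest mitochondrial share of the 16, 8.75%, and the highest exon-region share, 68.9%. Its median log2 difference from the median of the other 10 was 0.84 over the 10 genes and 0.11 over all genes. The part of these shares in its levels was not tested. As this is 1 animal, no test applies.

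Other ER genes were high in that library less uniformly. It was the highest of the 11 for 11 of 28 other folding genes (39.3%), 6 of 14 stress sensors and regulators (42.9%), 14 of 44 genes of entry into and exit from the ER (31.8%) and 5 of 20 genes of ER-associated degradation (25%). Outside the ER, it was so for 5 of 28 cytosolic chaperones (17.9%), 2 of 15 ATF4 targets (13.3%) and 0 of 13 mitochondrial chaperones and proteases. Secretory cells are rich in these chaperones, so their markers are given beside the result. The 7 listed plasma and B cell markers summed to 21.6 in LGHI replicate 3 and to 12.7 to 23.8 in the other 10. Most of that sum in LGHI replicate 3 was PRDM1 at 16.0, against 9.59 to 16.8 in the other 10, and IGJ, the joining chain of secreted antibodies, at 4.74 against 0.54 to 6.29. MZB1 was at 0.19, CD79A at 0.45, POU2AF1 at 0.25 and MS4A1 at 0 in that library. The 9 fibroblast and matrix markers summed to 432 against 213 to 468, and the 2 secretory epithelium markers to 1.98 against 0 to 0.59. Those 2 markers lie near the floor: SPDEF was at 0 in 15 of the 16 libraries and AGR2 in 11. The part of these cells in the level of the chaperones was not tested. In such whole tissue, fewer cells of a type and less RNA per cell cannot be told apart.

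Across the 11 libraries, most of the 10 genes varied with HSPA5. Pearson's r of log2 levels with HSPA5 was 0.89 for DNAJB9, 0.86 for HSP90B1, 0.80 for CALR, 0.80 for HYOU1, 0.69 for XBP1 and 0.65 for SYVN1. These 6 had permutation p-values of 0.0021, 0.0045, 0.0051, 0.0051, 0.0342 and 0.0438 after Benjamini-Hochberg adjustment over 9 genes. Spearman's rho was 0.87, 0.73, 0.75, 0.82, 0.78 and 0.66 for the same genes, with adjusted permutation p-values of 0.0085, 0.0254, 0.0230, 0.0138, 0.0178 and 0.0471. PDIA4 had an r of 0.60 (rho 0.49, adjusted permutation p = 0.0519 and 0.168), CRELD2 of 0.39 (rho 0.20, p = 0.260 and 0.628) and SDF2L1 of -0.06 (rho 0.10, p = 0.854 and 0.775). All of these values share library depth and scaling. By r with HSPA5, XBP1 ranked 248 and SYVN1 392 among all 9469 other genes, whose median r was 0.06.

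The relation was weaker without 2 animals. Without LGHI replicate 3 and HGLI replicate 1, which lie farthest from the median of HSPA5, r was 0.80 for DNAJB9, 0.77 for HSP90B1, 0.66 for HYOU1, 0.63 for CALR, 0.53 for XBP1 and 0.37 for SYVN1. No adjusted permutation p was then under 0.05, and the smallest was 0.0578. Leaving these 2 out also narrows the range of HSPA5 and leaves fewer animals. That alone can lower r and raise p, so the drop cannot show that the relation depends on them. PDIA4 had an r of 0.28, CRELD2 was at 0.23 and SDF2L1 at -0.07. Over all 45 pairs of the 10 genes r was positive in 42 and ran from -0.39 to 0.89, with a median of 0.58, as a description. A second set of close pairs lay outside HSPA5: XBP1 with HYOU1 (r = 0.88), HSP90B1 with CALR (0.87), PDIA4 with HYOU1 (0.86), PDIA4 with CRELD2 (0.83) and SDF2L1 with CRELD2 (0.81). SDF2L1 and DNAJB9 had the lowest, -0.39. All pair values include LGHI replicate 3, the highest of the 11 libraries for all 10 genes, and none was computed for pairs of genes at large. Without that library alone, r with HSPA5 was lower for every other gene of the 10, from 0.86 for DNAJB9 to -0.40 for SDF2L1. The limits of range and number given above apply there too.

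**Figure D5:**
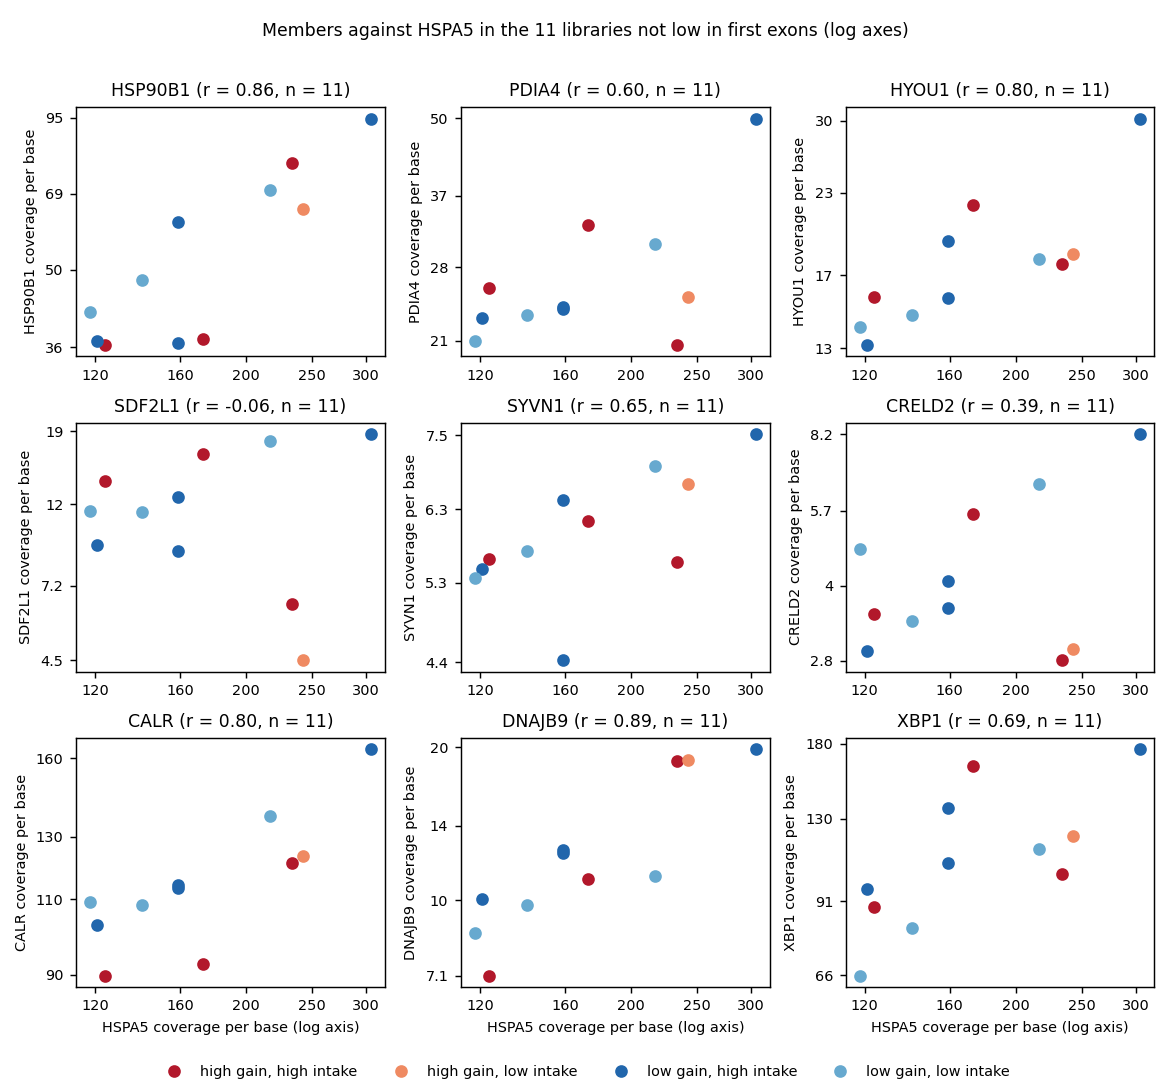
Level of each of the other 9 ER chaperone genes against HSPA5, both as coverage per base on log axes, in the 11 libraries that are not low in first exons, coloured by group. LGHI replicate 3 is the point farthest right in each panel; DNAJB9 follows HSPA5 most closely (r = 0.89), while SDF2L1 is lowest in 2 animals with high HSPA5 (r = -0.06).

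The genes most like HSPA5 across the 11 libraries were taken from all 9469 others by Pearson's r, whose median over them was 0.06. The first 10 were LYSMD3 (0.95), CANX (0.95), HERPUD1 (0.94), MANF (0.94), OSTC (0.93), CISD2 (0.92), DNAJB11 (0.92), CALU (0.92), GNPNAT1 (0.91) and SELK (0.91). CANX is the membrane-bound counterpart of CALR, HERPUD1 acts in ER-associated degradation, and MANF and DNAJB11 are ER-resident partners of HSPA5. DNAJB9 ranked 18, HSP90B1 28, CALR 70, HYOU1 75, XBP1 248, SYVN1 392 and PDIA4 595 among these 9469 genes. CRELD2 ranked 1999 and SDF2L1 5682. Without the 2 animals named above, r of the first 10 was 0.83 to 0.96. These genes were picked by their r over libraries that include the remaining ones, so a high r there follows largely from the choice. That range cannot be set against the drop in the members. These ranks are a description over 11 animals of 4 groups.

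Other genes of the pathway were counted by list in the fits over 16 libraries, and none of their genes passed the adjusted threshold for gain or intake with limma. Of 28 other ER folding genes, 18 had higher means at high intake, with a median log2 difference of 0.24, and in the 11 libraries 10 did, with a median of -0.09. The shares over all genes were 49.6% and 34.1%. Those with an unadjusted p under 0.05 were P4HB and FKBP14. P4HB, the classic protein disulfide isomerase, had a mean of 73.3 ± 21.3 in high-intake and 43.0 ± 26.5 in low-intake animals (SD, n = 8 each), a log2 difference of 1.02 (limma adjusted p = 0.529), and at 0.43 in the 11 libraries. FKBP14, a prolyl isomerase, was at -0.75 (limma adjusted p = 0.529), and at -0.57 in the 11. Of 20 genes of ER-associated degradation 13 were higher over the 16 (median 0.08) and 7 over the 11 (-0.02). Of 14 sensors and regulators 7 were higher over the 16 (0.03) and 4 over the 11 (-0.15). Of 44 genes of entry and exit 21 were higher over the 16 (-0.02) and 14 over the 11 (-0.10).

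In that last list the translocon subunit SEC61A1 was at 1.06 for intake, the cargo receptor SURF4 at 1.08 and SEC62 at -0.45, each with an unadjusted p under 0.05 and a limma adjusted p of 0.529. In the 11 libraries they were at 0.51, 0.39 and -0.41. For gain, 14 of 28 other folding genes, 14 of 20 degradation genes, 8 of 14 sensors and regulators and 27 of 44 entry and exit genes were higher at high gain. The median log2 differences were -0.01, 0.11, 0.01 and 0.18, against -0.05 over all genes. In the 11 libraries the counts were 12, 14, 10 and 24, with medians of -0.05, 0.10, 0.04 and 0.07, and 46.1% of all genes were higher over the 16 and 45% over the 11. MBTPS1, the protease that activates ATF6, was at 5.52 ± 0.542 in high-gain and 7.14 ± 0.695 in low-gain animals (SD, n = 8 each), a log2 difference of -0.37 (limma adjusted p = 0.847), and at -0.32 in the 11. Of 21 listed sensors and regulators 14 were tested, and none passed the adjusted threshold. For gain 1 of the 14, MBTPS1, was lower at an unadjusted limma p under 0.05, beside 4.35% of all genes lower and 0.982% higher. For intake 0 of the 14 had such a p over the 16 libraries, beside 2.46% of all genes higher and 5.81% lower.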

How the data were processed

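The deposited file holds, for 16 libraries, coverage of 2351373 genomic regions annotated as exon, intron or intergenic. The values deposited by the authors are signal: coverage averaged over a region's bases and multiplied by 1 factor per library, as read from the values themselves. Reads were aligned with TopHat2 2.08b to the bovine genome UMD3.1, per the submitters' processing notes. How regions were made, from which annotation and with which strand setting is not given in the sources used here. Taken over 1 read length (50 bases), a single read is worth 0.56 to 1.00, from which reads were estimated; no count test was run. P-values measure the spread between animals.

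Each gene is represented by the most covered exon-bearing region that it shares with no other gene, and 523 shared regions were not used. The filter asked for a value of 0.5 or more in 4 or more libraries, and the test ran on log2(value + 0.1), and folds of low genes are understated on this scale. limma 3.58.1 in R 4.3.3, with trend and robust options, was fitted to 4 group means. Tests are two-sided, with Benjamini-Hochberg adjustment over all genes and a threshold of 0.05. The script was checked on simulated data. Correlations used 100000 permutations. The members, the lists and the alternatives were chosen with earlier results of these data known, so counts over a list support nothing on their own. The rule for named genes was the 10 members, up to 4 genes per other list with the smallest unadjusted p, and the 10 genes most like HSPA5; of the first, those with an unadjusted p under 0.05 are printed. Replicates are numbered in accession order. Alternatives tried were another pseudocount, no filter, limma without its options, median-of-ratios scaling, other gene levels, fewer libraries and the first-exon index as covariate.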

Additional observations from a re-analysis of the deposited data

Results flagged for a closer look

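Each of the 10 genes was looked at in each of the 4 groups, 40 sets of 4 animals in all. In 6 of them the highest animal stood apart, with a gap to the next one that was a share of the whole range above Dixon's critical value for 4 values. Chance flags about 1 in 20 independent sets, but these 40 share 16 animals and 10 genes that vary together, so that rate is no measure for the 6.

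In HGLI, replicate 1 stood apart for 3 genes. HYOU1 was at 18.4 in it and at 5.27 to 6.79 in the others (gap share 0.884), SDF2L1 at 4.5 against 0.28 to 0.58 (0.929), and CRELD2 at 2.96 against 0.15 to 0.21 (0.979). This is the 1 library of its group that is not low in first exons. In LGLI, DNAJB9 was at 25.2 in replicate 3 and at 8.62 to 11.2 in the others (0.847), and replicate 3 is the library of that group that is low in first exons. In LGHI, PDIA4 was at 49.9 in replicate 3 and at 22.95 to 23.9 in the others (0.964), none of them low in first exons. In HGHI, CALR was at 121 in replicate 3 and at 89.9 to 94.7 in the others (0.846).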

How the results depend on the processing

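No paired analysis was possible because nothing in the labels ties an animal of 1 group to an animal of another, and the replicate numbers used here follow accession order. The counts of 0 genes past the threshold for gain, intake and their interaction held with a pseudocount of 1, no filter, limma without its options, median-of-ratios scaling and the best region without a first exon. That last setting gives no value for HSPA5, CALR and DNAJB9. For gain, 65 genes passed without the 5 libraries low in first exons and 1376 with the first-exon index as covariate; leaving out each library in turn gave 0 to 71, with 71 without LGLI replicate 3. For intake, 2 passed with the length-weighted mean over all regions, and leaving out 1 library gave 0 to 1, with 1 without HGHI replicate 4. The interaction stayed at 0 in every setting. Median-of-ratios scaling moved the all-gene median for intake from -0.01 to 0.10, and the 10 genes kept their signs under it.

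Signs changed as follows. Without the 5 libraries, intake gave -0.16 for HSPA5, -0.21 for HSP90B1, -0.12 for SYVN1, -0.13 for CALR and -0.15 for DNAJB9, gain gave 0.11 for HYOU1 and 0.0696 for SYVN1, and the interaction -0.14 for PDIA4. With the index as covariate, gain gave 0.33 for PDIA4, 1.10 for HYOU1, 1.07 for SDF2L1, 1.14 for SYVN1, 0.83 for CRELD2, 0.31 for CALR, -0.39 for DNAJB9 and -0.0518 for XBP1, and the interaction -0.18 for CRELD2 and 0.0587 for DNAJB9. With the length-weighted mean, XBP1 was at -0.0210 for gain. With shared regions allowed, an alternative chosen after seeing the data as were those on LGHI replicate 3, HSP90B1 was at 0.0038 for the interaction.

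Leaving out 1 library gave ranges across 0 for gain in HSPA5 (-0.0003 to 0.38), HSP90B1 (-0.10 to 0.29), HYOU1 (-0.65 to 0.0154) and SYVN1 (-0.60 to 0.11), and for intake in HSP90B1 (-0.0209 to 0.37) and DNAJB9 (-0.16 to 0.21). For the interaction they were -0.51 to 0.24 in HSPA5, -0.64 to 0.14 in HSP90B1, -0.73 to 0.59 in HYOU1, -0.65 to 0.79 in SYVN1, -0.0334 to 1.89 in CRELD2, -0.45 to 0.24 in CALR, -0.52 to 0.22 in DNAJB9 and -0.47 to 0.11 in XBP1. Other estimates kept their sign but moved by over 1.5 times without 1 library, among them those of SDF2L1 and CRELD2. SDF2L1 ran from 1.14 (without LGLI replicate 3) to 2.56 for intake, from -2.53 to -1.11 (without HGHI replicate 4) for gain and from 0.25 to 2.62 for the interaction. CRELD2 ran from 0.83 (without LGLI replicate 3) to 2.06 for intake, and the median of the 10 genes for intake from 0.392 (without LGLI replicate 3) to 0.794. The correlations with HSPA5 that lost their adjusted p without the 2 farthest libraries were at 0.772 for HSP90B1, 0.664 for HYOU1, 0.366 for SYVN1, 0.635 for CALR, 0.800 for DNAJB9 and 0.535 for XBP1. The cause of these changes was not tested. Few reads limit SDF2L1, CRELD2 and SYVN1 most, whose levels rest on an estimated 1 to 28 reads in the 5 libraries low in first exons. Estimated depth of the whole library was 14.7 to 21.2 M reads in those 5 and 11.9 to 20.8 M in the other 11.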

Other observations

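Chaperones outside the ER were counted beside the ER genes over the same animals. Of 28 cytosolic chaperones, 12 were higher at high intake over the 16 libraries (median log2 difference -0.18), and in the 11 libraries 1 of 27 was higher (median -0.26, against -0.13 over all genes). Of 13 mitochondrial chaperones and proteases, 8 were higher over the 16 (median 0.26) and 1 of 13 over the 11 (median -0.20). Of all genes, 49.6% were higher at high intake over the 16 and 34.1% over the 11. None of them had an adjusted p under 0.05 with limma. For gain, HSPA1A, the stress-induced cytosolic Hsp70, had a mean of 94.2 ± 60.3 in high-gain and 192 ± 106 in low-gain animals (SD, n = 8 each), a log2 difference of -1.07 (limma adjusted p = 0.847). In the 11 libraries it was at -0.32. HSF1, the transcription factor of the heat shock response, was at -2.83 over the 16 (limma adjusted p = 0.847) and at -0.65 over the 11.

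Of 15 targets of ATF4, the transcription factor of the PERK branch, 12 were higher at high intake over the 16 libraries (median 0.62) and 9 over the 11 (median 0.03). Beside these counts stand the shares over all genes, 49.6% and 34.1%. None passed the adjusted threshold. For gain, CARS, a cysteine tRNA ligase, had a mean of 2.72 ± 3.002 in high-gain and 6.60 ± 2.90 in low-gain animals (SD, n = 8 each), a log2 difference of -2.01 (limma adjusted p = 0.847), and was at -0.83 in the 11 libraries. HSPA1A, HSF1 and CARS are named for an unadjusted p under 0.05. Of the 15 ATF4 targets 8 were lower by more than 1 on the log2 scale in the 5 libraries low in first exons than in the other 11, as were 8 of the 13 mitochondrial genes and 3110 of the 9470 tested.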
